A study of Mus musculus with 9 samples.

Results

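The genes described here set the pace of the G1 phase: the D-type cyclins Ccnd1, Ccnd2 and Ccnd3, the E-type cyclin Ccne1, and 6 inhibitors of the kinases those cyclins drive, Cdkn1a, Cdkn1b, Cdkn1c, Cdkn2a, Cdkn2b and Cdkn2c. They were read by every probe whose gene symbol in the deposited bead array tables was one of these 10, out of 30869 symbols. That gave 24 of 45281 probes. Of these, 21 were detected on at least 3 of the 9 arrays and were tested, and each of the 10 genes kept at least 1 probe.

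The study named all cells activated hepatic stellate cells (aHSCs), the collagen-producing pericytes of the injured liver. Markers of other cell types were also present, as given below. All samples were labelled as from male C57/Bl6 mice of genotype WT1GFP/+ (the study's methods state that both sexes were used for in vitro work). These mice carry green fluorescent protein (GFP) in place of 1 copy of WT1, a transcription factor of the mesothelium, so that GFP marks cells in which the locus is active. In the first pair of groups, cells were isolated by density centrifugation from livers injured by repeated intraperitoneal carbon tetrachloride and sorted by flow cytometry straight into lysis buffer. They gave 3 arrays of GFP-high cells (WT1-high, replicates 1, 8 and 29) and 3 of GFP-low cells (called WT1-intermediate in the study, replicates 1, 8 and 30). The last 3 arrays (WT1-negative, replicates 3, 11 and 14) held GFP-negative cells sorted after quiescent cells from such animals had activated during 7 days on plastic. The in vivo arrays were paired, each animal giving a WT1-high and a WT1-intermediate sort, and replicates 29 and 30 were taken as the pair of 1 animal. The labels do not say whether the cultures came from separate animals, so p-values against them measure the spread between these arrays. WT1-negative cells were taken only from culture, so WT1 status and origin cannot be told apart in either comparison that uses them.

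A D-type cyclin binds and activates Cdk4 or Cdk6 when growth signals arrive, and these kinases begin to phosphorylate the retinoblastoma protein. E2F factors are then released and raise cyclin E, whose kinase partner Cdk2 completes the step and commits the cell to S phase. The Cip/Kip proteins p21 (Cdkn1a), p27 (Cdkn1b) and p57 (Cdkn1c) bind cyclin and kinase together, with Cdk2 complexes as their main target. The INK4 proteins p16 (from Cdkn2a), p15 (Cdkn2b) and p18 (Cdkn2c) hold Cdk4 and Cdk6 away from D-type cyclins. In stellate cells, quiescence is a non-dividing state and activation brings entry into the cycle, while p16, p21 and Arf accumulate in cells that have divided for long or become senescent.

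Probes of Cdkn2a read separate transcripts with separate start sites, so both are shown. It encodes p16Ink4a and, through another first exon read in a different frame, p19Arf, which binds Mdm2 and so protects p53. Of its 3 probes, 1 is annotated to transcript variant 2 and lies in the first exon of Ink4a, and 1 is annotated to transcript variant 1 and lies in the first exon of Arf. The third and brightest, ILMN_1226950, is annotated to variant 1, and whether it also reads variant 2 was not determined. The probe sequences, copied from the deposited tables, are:
Ink4a first exon, ILMN_1227342: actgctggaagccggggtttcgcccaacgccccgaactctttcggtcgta
Arf first exon, ILMN_1221177: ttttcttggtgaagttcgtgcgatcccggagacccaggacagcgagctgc

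The transcripts start from separate promoters on the minus strand of chromosome 4. The RefSeq table (build GRCm38.p6) gave 1 start site for each, and the 250 bases before them are shown 5′ to 3′ on the gene's strand. Capitals mark a match to the E2F motif, searched as TTTCCCGC, TTTCGCGC, TTTGCCGC or TTTGGCGC on both strands of each 300-base promoter (250 bases before and 50 after the start).
Arf start site, chr4:89294620-89294869: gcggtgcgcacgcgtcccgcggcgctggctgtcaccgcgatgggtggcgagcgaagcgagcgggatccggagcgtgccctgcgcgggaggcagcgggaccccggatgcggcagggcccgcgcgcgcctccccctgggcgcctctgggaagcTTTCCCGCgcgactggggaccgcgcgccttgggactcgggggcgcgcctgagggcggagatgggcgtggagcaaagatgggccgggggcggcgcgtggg
Ink4a start site, chr4:89282193-89282442: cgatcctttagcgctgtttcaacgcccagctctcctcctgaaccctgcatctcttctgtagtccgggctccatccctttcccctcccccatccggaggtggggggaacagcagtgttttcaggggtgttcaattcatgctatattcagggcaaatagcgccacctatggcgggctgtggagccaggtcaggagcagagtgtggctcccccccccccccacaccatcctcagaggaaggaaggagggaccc
A match stood in the Arf promoter, its first base 99 bases before the start, and none in the Ink4a window. RefSeq promoters were matched for 7 of the 10 genes (11 promoters; Ccnd1, Ccnd2 and Cdkn1c had none in the table), and the Arf promoter was the only 1 of the 11 with a match. Over all 32851 promoters of the table, 744 (2.26%) held one. A match is a run of letters and not a measured binding site.

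Levels below are log2 intensities after background correction and quantile normalization, and differences between groups are on the same log2 scale. A probe was termed detected on an array when its deposited detection p-value was under 0.05, and a difference was called when limma's p, adjusted by Benjamini-Hochberg over all 20573 tested probes, was under 0.05. Each gene is given first by its brightest tested probe. Signals of different probes are not on a common scale, so levels are compared only between groups for 1 probe. Between 38.1% and 43.7% of gene probes were detected per array. Since each array held RNA from a bulk sort, fewer expressing cells and less RNA per cell cannot be told apart.

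Markers of other cell types differed between the groups. The 10 macrophage markers had a summed linear level of 3584 to 6491 in WT1-high, 12748 to 20779 in WT1-intermediate and 41956 to 48076 in WT1-negative arrays, and Itgam was undetected in WT1-high cells. The 9 tested markers of skeletal muscle (among them Myog and Acta1) summed to 30.4 to 43.9, 34.2 to 51.7 and 6334 to 9559 in the same order. Of the 10 muscle genes listed, 8 were detected on no WT1-high array and 7 on no WT1-intermediate array, while 9 were detected on all WT1-negative arrays. The 8 mesothelial markers ran the other way, with 25161 to 28981, 15989 to 21243 and 211 to 305. The 10 endothelial markers summed to 936.3 to 1293, 1615 to 2098 and 866 to 1208. Sums for 6 hepatocyte markers were 317 to 1765 in WT1-high, 421 to 1423 in WT1-intermediate and 29.0 to 59.9 in WT1-negative arrays, without Alb on any array. Sums for 6 T and NK cell markers were 413 to 679, 607 to 859 and 51.3 to 146. The 8 tested stellate cell markers summed to 3566 to 4235 in WT1-high, 3271 to 4868 in WT1-intermediate and 1778 to 2026 in WT1-negative arrays. Among stellate cell markers Gfap was detected on no array and Lrat on too few to be tested, whereas Des, Pdgfrb and Cygb were detected on all 9. Hand2 was detected on no WT1-negative array and Ngfr on no WT1-intermediate array. The part of other cells in the results below was not tested, apart from what these levels show.

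Against cultured WT1-negative cells, most of the cyclins and inhibitors were lower in cells from the fibrotic liver. Among the 10 genes, 7 were called lower and 0 higher in WT1-high cells, where 59.8% of all genes were called by their brightest probe (32.1% lower and 27.6% higher). In WT1-intermediate cells, 7 were called lower and 1, Cdkn1c, higher, where 57.9% of all genes were called (32% lower and 25.9% higher). By probe, 12 of 21 were called in the first comparison and 14 in the second, beside 59.6% and 58% of all probes. Groups did not overlap for 6 and 8 of the 10 genes, as was so for 68.4% and 65.5% of all probes. The median difference over the 10 genes was -0.79 in the former and -1.05 in the latter, while the medians over all genes were -0.07 and -0.10. Both comparisons used the same WT1-negative arrays. Ccne1 passed the detection filter only with those arrays. When the WT1-positive groups were set against each other, 0 of the 10 genes were called by limma (1 at an unadjusted p under 0.05), where 3.83% of all genes were. None of the 21 probes was called there (3 at an unadjusted p under 0.05), beside 3.55% of all probes, and groups did not overlap for 1 gene, beside 20.1% of all probes. In that comparison the median difference was 0.05, against 0.04 over all genes. The fit behind these counts took no account of the animal. With the animal as a term over the 6 in vivo arrays (fixed replicate block), Cdkn1c and Cdkn2b were called. Their limma adjusted p was 0.0162 and 0.00593, and 7.39% of all probes were called. Over all 3 groups, 8 of the 10 genes passed limma's F test, as did 61.1% of all probes, and Ccnd3 and Cdkn2b did not (adjusted p = 0.145 and 0.0854).

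**Figure D1:**
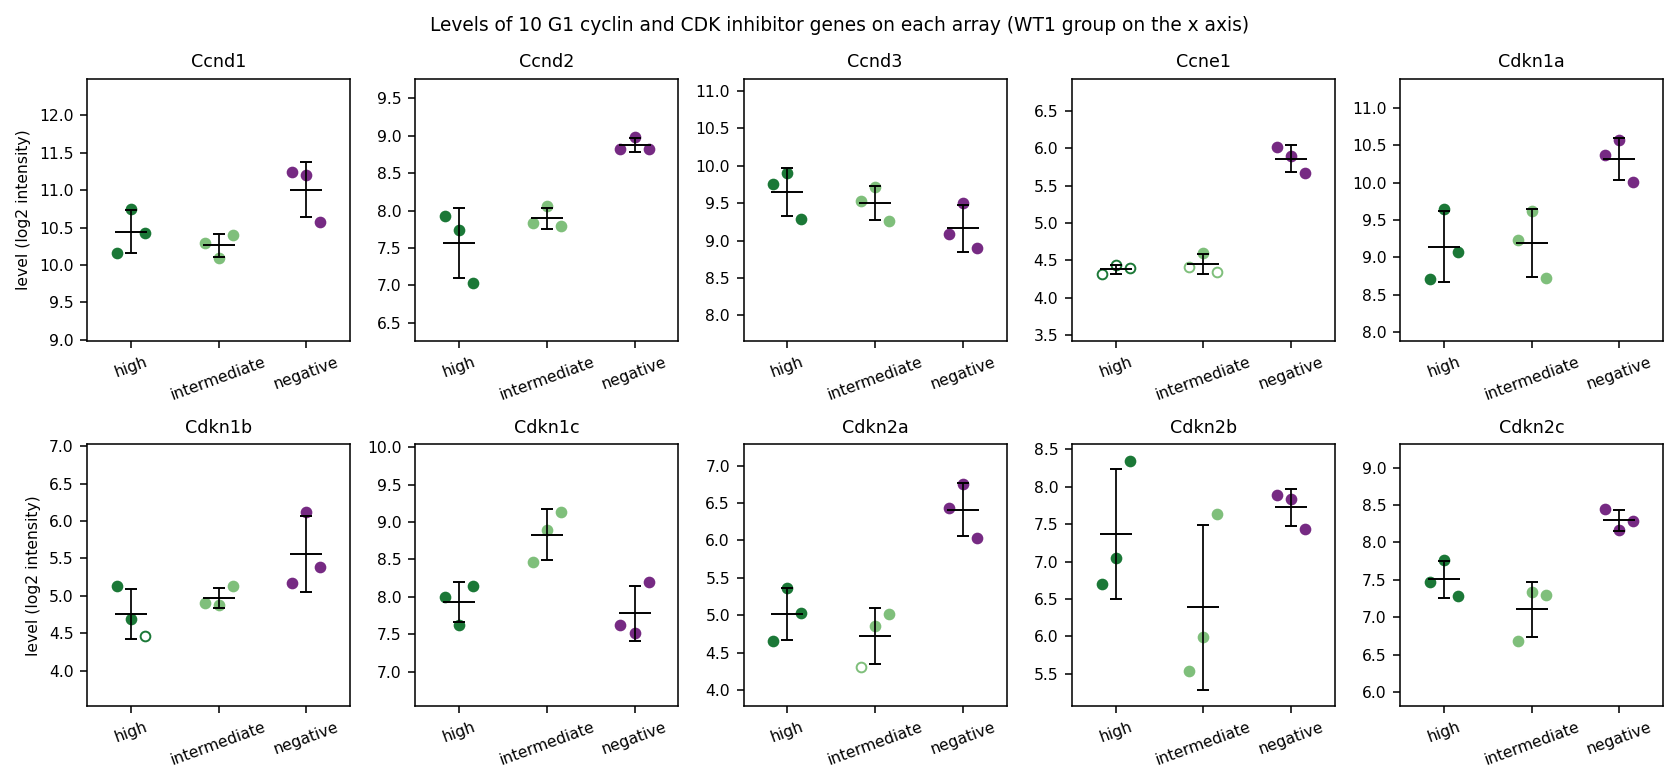
Level of each gene on its brightest probe (y axis, log2 intensity, each panel spanning the same range) by WT1 group (x axis). Points are single arrays, filled where the probe was detected and open where it was not, and black lines give the mean ± SD of 3 arrays. Ccnd2, Ccne1, Cdkn1a, Cdkn1b, Cdkn2a and Cdkn2c were higher on all WT1-negative arrays than on any other, and Cdkn1c was highest in WT1-intermediate cells.

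Among D-type cyclins, Ccnd2 changed most clearly. Its level was 7.93, 7.74 and 7.04 on the WT1-high arrays (replicates 1, 8 and 29), 7.84, 8.06 and 7.79 on the WT1-intermediate arrays (1, 8 and 30) and 8.83, 8.98 and 8.82 on the WT1-negative arrays (3, 11 and 14). Every WT1-negative array lay above all 6 in vivo arrays, and WT1-high replicate 29 lay lowest. Relative to culture, Ccnd2 fell by 1.31 (SE 0.21, 2.48-fold, limma adjusted p = 0.000284) in WT1-high and by 0.98 (SE 0.21, 1.97-fold, adjusted p = 0.00219) in WT1-intermediate cells. A further probe, ILMN_2700168, shares 43 bases with this one and gave -1.25 and -0.93. It is therefore no separate measurement of the transcript. ILMN_1225932 has no such overlap. It was detected on 2 arrays of each in vivo group and on no WT1-negative array, and it gave 0.18 and 0.54, neither called (adjusted p = 0.539 and 0.0729). The WT1-intermediate difference, opposite in sign to that of the brightest probe, was called with cyclic loess (0.72, adjusted p = 0.0085), median scaling (0.89, 0.000992) and array weights (0.54, 0.0388), and without WT1-intermediate replicate 30 (0.90, 0.00144). Another Ccnd2 probe was not tested, being detected on too few arrays.

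Ccnd1, the cyclin most often tied to mitogen signals, differed less. The WT1-high arrays had 10.16, 10.75 and 10.43, the WT1-intermediate arrays 10.29, 10.10 and 10.40, and the WT1-negative arrays 11.24, 11.20 and 10.58. WT1-negative replicate 14 stood below the other 2 cultures and under WT1-high replicate 8, so WT1-high and WT1-negative arrays overlapped, whereas all WT1-intermediate arrays lay below the cultures. In WT1-intermediate cells the gene fell by 0.75 (SE 0.21, 1.68-fold, limma adjusted p = 0.0105). In WT1-high cells it fell by 0.56 (SE 0.21, 1.47-fold, adjusted p = 0.0392). That call was lost without WT1-high replicate 1 or 29 or WT1-negative replicate 3 or 11 (adjusted p = 0.144, 0.078, 0.139 and 0.124), and with the replicate numbers of the labels as a random replicate block (0.0521). Of the other probes, ILMN_2669793 gave -0.70 (called) in WT1-high and -0.83 (called) in WT1-intermediate cells. ILMN_2601471, which overlaps the brightest by 49 bases, gave -0.36 (not called) and -0.62 (called). The WT1-high call of the former was lost without WT1-high replicate 29 (adjusted p = 0.0691) or WT1-negative replicate 11 (0.0821). For the latter, the WT1-intermediate call was lost without WT1-intermediate replicate 1 (0.0628) or 8 (0.0631) or WT1-negative replicate 3 (0.0851) or 11 (0.0845), and the WT1-high difference was called without WT1-high replicate 8 (0.0406).

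Ccnd3, the D-type cyclin prominent in lymphoid and muscle cells, had no probe called in any comparison with all 9 arrays and the processing described. The brightest read 9.76, 9.90 and 9.29 in WT1-high, 9.53, 9.72 and 9.26 in WT1-intermediate and 9.09, 9.50 and 8.90 in WT1-negative cells. The 3 groups overlapped. Its differences from culture were 0.49 (SE 0.21, adjusted p = 0.0683) for WT1-high and 0.34 (SE 0.21, adjusted p = 0.187) for WT1-intermediate cells. The former was called without WT1-high replicate 29 (0.67, adjusted p = 0.0219) or WT1-negative replicate 11 (0.66, 0.0273). ILMN_1246473 was detected on all 9 arrays at low signals (unnormalised intensity 87.9 to 188). It had differences of opposite sign, -0.32 and -0.53 (limma adjusted p = 0.24 and 0.0656). The probes of this gene, annotated to different RefSeq transcripts, thus disagreed in direction, but on differences that were not called. The WT1-intermediate difference of ILMN_1246473 was called without WT1-intermediate replicate 8 (-0.74, adjusted p = 0.016) or WT1-negative replicate 3 (-0.68, 0.0382). The third probe was detected on 4 arrays only, none of them WT1-negative.

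Ccne1, the E-type cyclin that is itself an E2F target, parted liver from culture without exception. WT1-high arrays read 4.32, 4.44 and 4.39, WT1-intermediate arrays 4.41, 4.61 and 4.35, and WT1-negative arrays 6.02, 5.89 and 5.67. The probe was detected on none of the 3 WT1-high arrays, on 1 WT1-intermediate array (replicate 8) and on all 3 WT1-negative arrays. The WT1-high level is therefore a bound, and Ccne1 was at least 2.49-fold lower in WT1-high than in WT1-negative cells (limma adjusted p = 7.36e-06). In WT1-intermediate cells it fell by 1.41 (SE 0.15, 2.65-fold, adjusted p = 1.31e-05), with levels near background. Without background correction these differences were -0.52 and -0.49 and still called (adjusted p = 0.000115 and 0.000172). The probe met the filter of 3 arrays only with the WT1-negative arrays, so the filter itself favoured a fall from culture. The difference between the WT1-positive groups was -0.07 (SE 0.15, adjusted p = 0.854), measured where the transcript was mostly undetected.

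**Figure D2:**
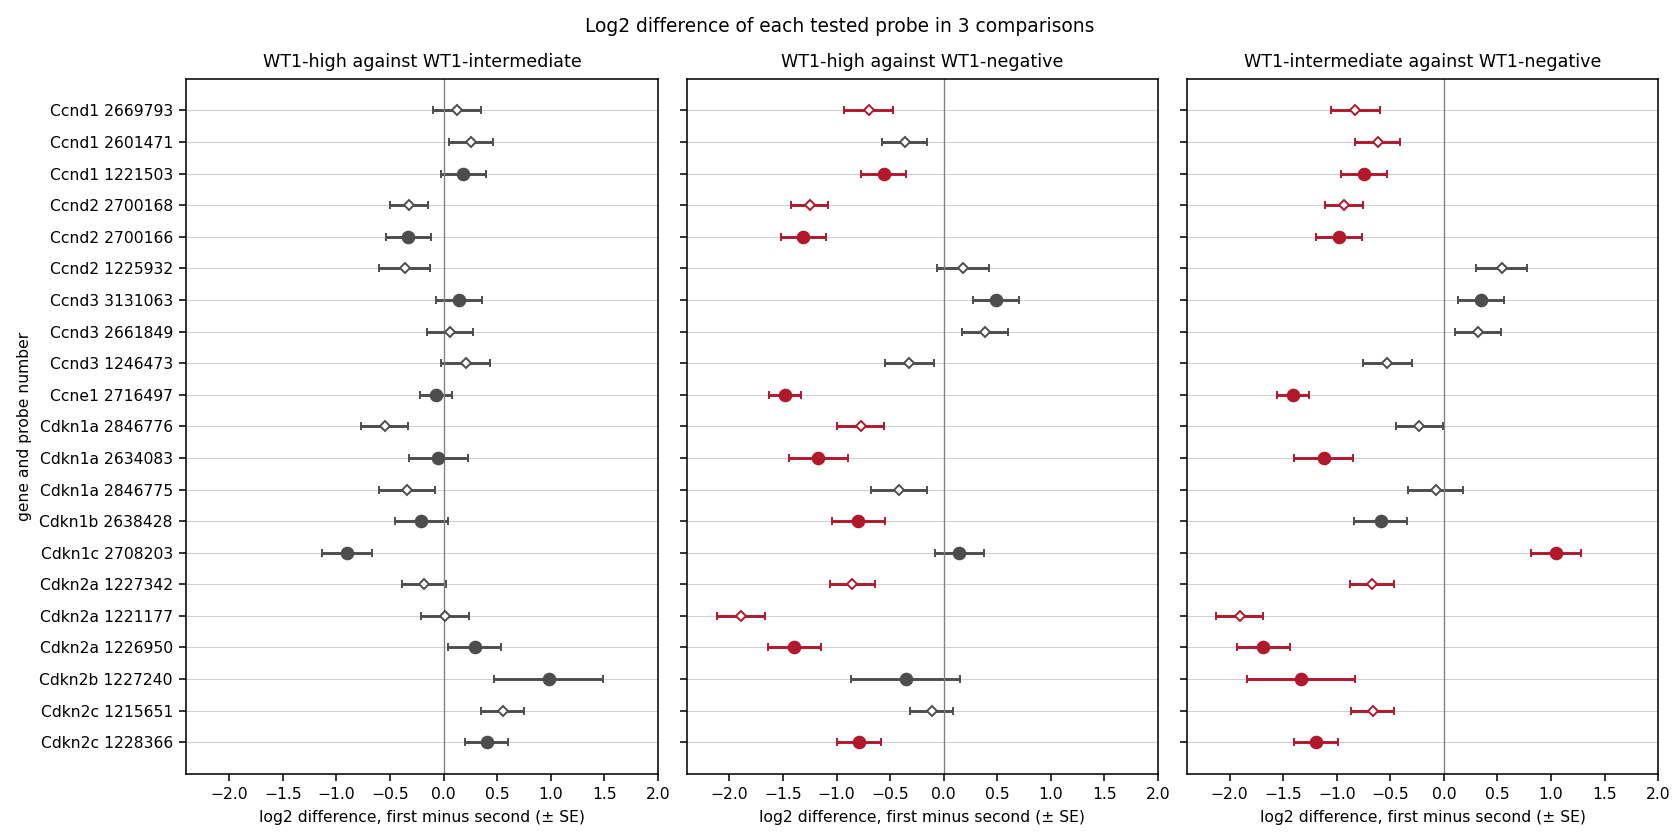
Log2 difference of each of the 21 tested probes (y axis, gene and probe number) in the 3 comparisons (x axis, first group minus second, bars ± SE from limma). Filled circles are each gene's brightest probe, open diamonds its other probes, and red marks an adjusted p under 0.05. The fit took no account of the animal. No probe was red between the WT1-positive groups, 12 were red and lower in WT1-high than WT1-negative cells, and 13 red and lower with 1 higher in WT1-intermediate cells.

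Of the Cip/Kip inhibitors, Cdkn1a encodes p21, the best known transcriptional target of p53. Its brightest probe read 8.72, 9.65 and 9.07 in WT1-high cells, 9.24, 9.62 and 8.72 in WT1-intermediate cells and 10.37, 10.57 and 10.01 in culture. The 6 in vivo arrays spread over the same range and all lay below the cultures. Compared with WT1-negative cells, Cdkn1a fell by 1.17 (SE 0.27, 2.25-fold, limma adjusted p = 0.00345) in WT1-high and by 1.12 (SE 0.27, 2.17-fold, adjusted p = 0.00467) in WT1-intermediate cells.

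The size depended on the probe. ILMN_2846776 gave -0.78 (called) for WT1-high and -0.23 (not called, adjusted p = 0.387) for WT1-intermediate cells, and ILMN_2846775 gave -0.42 and -0.08, neither called (without WT1-negative replicate 14 the first was -0.73, adjusted p = 0.017). On ILMN_2846776 all WT1-high arrays (7.19, 7.47 and 7.32) lay below all WT1-intermediate arrays (7.94, 7.92 and 7.77), a difference of -0.55 (SE 0.22) with an adjusted p of 0.219. The brightest probe showed -0.05 there. The ends of the 3 probes share no more than 2 bases, so they read different stretches of the transcript. Within animals the second probe was lower in WT1-high cells in all 3 pairs (-0.74, -0.45 and -0.46), and the fixed replicate block, which fits the animal as a term over the 6 in vivo arrays, did not call it (adjusted p = 0.0656).

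Cdkn1b encodes p27, an inhibitor regulated largely through protein stability. It was read close to background, at 5.13, 4.70 and 4.46 in WT1-high, 4.90, 4.88 and 5.13 in WT1-intermediate and 5.17, 6.13 and 5.38 in WT1-negative cells. WT1-high replicate 29 was not detected, and WT1-negative replicate 11 stood above the rest. The cultures lay above all in vivo arrays by a narrow margin. Against culture Cdkn1b fell by 0.80 (SE 0.25, 1.74-fold, limma adjusted p = 0.0161) in WT1-high cells. That call was lost without WT1-high replicate 29 (adjusted p = 0.0598) or WT1-negative replicate 11 (0.0637, with a difference of -0.51). The difference for WT1-intermediate cells, -0.59 (SE 0.25), had an adjusted p of 0.0609 and was called with the random replicate block (adjusted p = 0.0477). Its other 2 probes were detected on too few arrays to be tested.

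Cdkn1c was the member whose level set WT1-intermediate cells apart. It encodes p57, an imprinted inhibitor expressed from the maternal allele in differentiating and resting cells. WT1-intermediate arrays read 8.46, 8.89 and 9.13, whereas WT1-high arrays read 8.00, 7.63 and 8.15 and WT1-negative arrays 7.62, 7.51 and 8.20. All 3 WT1-intermediate arrays lay above the other 6, and WT1-high and WT1-negative arrays interleaved. Cdkn1c was higher by 1.05 (SE 0.23, 2.07-fold, limma adjusted p = 0.00253) in WT1-intermediate cells than in culture, and its WT1-high level differed from WT1-negative by 0.15 (SE 0.23, adjusted p = 0.606).

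WT1-high minus WT1-intermediate was -0.90 (SE 0.23, 1.87-fold), with an adjusted p of 0.0596. When arrays of the same animal were compared, WT1-high cells had less Cdkn1c in all 3 animals, with differences of -0.46, -1.26 and -0.99. With the animal as a fixed replicate block over the in vivo arrays the difference was called (SE 0.18, limma adjusted p = 0.0162). The SD of the 3 differences within animals was 0.41. It was also called with a random replicate block by the label numbers, which leaves 29 and 30 unpaired (-0.89, limma adjusted p = 0.0206). The fixed block called 7.39% of all probes. Of the 10 macrophage markers, 7 were called lower and 0 higher in WT1-high than WT1-intermediate cells. Their summed level was highest in WT1-negative arrays, but the single markers were split. WT1-intermediate cells had 5 called lower than in culture and 1, Marco, called higher (2.37, limma adjusted p = 0.00376). Of the 10 endothelial markers, 3 were called lower and 0 higher in WT1-high than WT1-intermediate cells. Against culture, WT1-intermediate cells had 3 called higher and 5 lower (median -0.04). The summed endothelial level was highest in WT1-intermediate arrays, at 1615 to 2098. It was 936.3 to 1293 in WT1-high and 866 to 1208 in WT1-negative arrays. The part of either cell type in the Cdkn1c result was not tested.

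**Figure D3:**
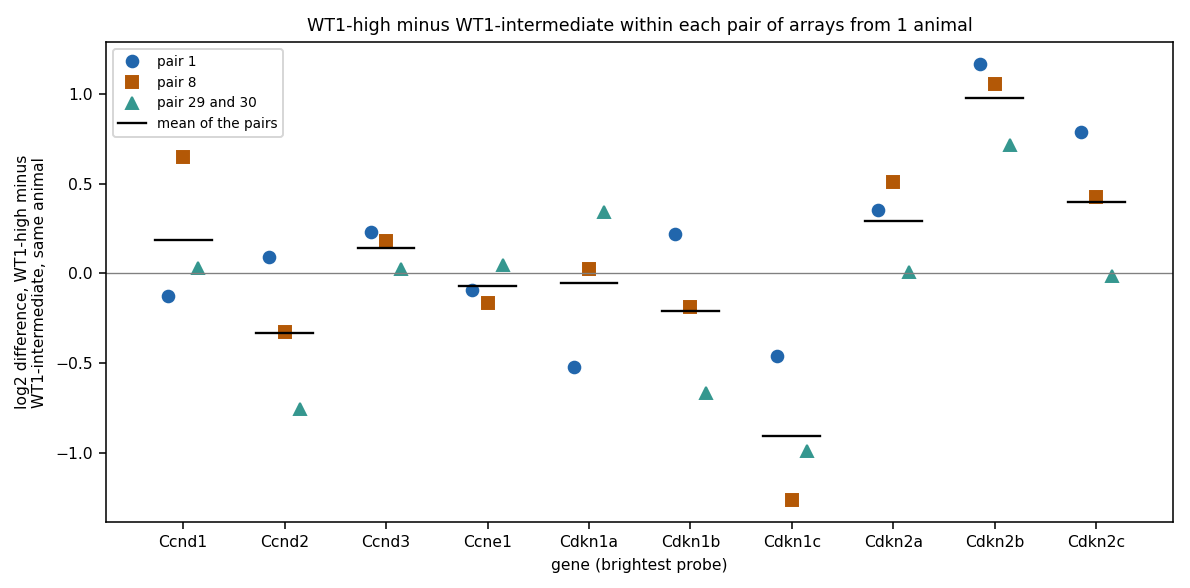
Log2 difference, WT1-high minus WT1-intermediate, between arrays of the same animal (y axis) for each gene's brightest probe (x axis). Symbols are the 3 animals (replicates 1 and 1, 8 and 8, 29 and 30) and black lines their mean. Cdkn1c was below 0 and Cdkn2b above 0 in all 3 animals by at least 0.46 in size.

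Within animals, 4 of the 10 genes went 1 way in all 3 pairs (Cdkn1c lower in WT1-high cells, and Ccnd3, Cdkn2a and Cdkn2b higher), as did 43.8% of all tested probes. The fixed replicate block called Cdkn1c and Cdkn2b. For Ccnd3 and Cdkn2a the smallest differences of a pair were 0.02 and 0.01, and neither was called (adjusted p = 0.633 and 0.34 with the block).

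Among INK4 genes, Cdkn2a was lower in both WT1-positive groups than in culture on all 3 probes. The Arf probe read 4.41, 4.79 and 4.40 in WT1-high, 4.31, 4.80 and 4.45 in WT1-intermediate and 6.29, 6.88 and 6.11 in WT1-negative cells. All cultures lay above all in vivo arrays, and of the in vivo arrays only the 2 numbered 8 passed detection. The Arf probe therefore met the detection filter only with the cultures. The Arf probe fell by 1.89 (SE 0.22, 3.71-fold, limma adjusted p = 2.42e-05) in WT1-high and by 1.91 (SE 0.22, 3.75-fold, adjusted p = 2.75e-05) in WT1-intermediate cells. This is the transcript whose start site carries the E2F letters printed above. A link between those letters and the fall was not tested. No promoter of the other genes searched held a match. Of these genes, Ccne1, Cdkn1a, Cdkn1b and Cdkn2c were called lower in WT1-high cells, and Ccnd3 and Cdkn2b were not.

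The Ink4a probe read 4.34, 4.42 and 4.58 in WT1-high, 4.39, 4.42 and 5.08 in WT1-intermediate and 5.28, 5.56 and 5.06 in WT1-negative cells. It was detected on no WT1-high array, on WT1-intermediate replicate 30 only, and on all cultures. It was thus at least 1.69-fold lower in WT1-high than in WT1-negative cells (limma adjusted p = 0.00425). Like the Arf probe, it met the detection filter only with the cultures. In WT1-intermediate cells it fell by 0.67 (SE 0.21, adjusted p = 0.016), although replicate 30 reached the lowest culture, and the call was lost without WT1-intermediate replicate 1 or 8 or WT1-negative replicate 11 (adjusted p = 0.0575, 0.0592 and 0.0675).

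The Cdkn2a probe of highest signal read 4.66, 5.36 and 5.02 in WT1-high, 4.30, 4.85 and 5.02 in WT1-intermediate and 6.44, 6.75 and 6.04 in WT1-negative cells. On it the gene fell by 1.39 (SE 0.25, 2.63-fold, limma adjusted p = 0.000565) and by 1.68 (SE 0.25, 3.21-fold, adjusted p = 0.000162). None of the 3 probes differed between the WT1-positive groups beyond the spread (adjusted p = 0.602 to 0.984). Folds of the Ink4a and Arf probes were not tested against each other, and both sit near background in vivo. Without background correction all 3 probes were still called lower, by less. The Arf probe then gave -0.76 in both comparisons, and the brightest gave -0.59 (WT1-high) and -0.69 (WT1-intermediate).

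**Figure D4:**
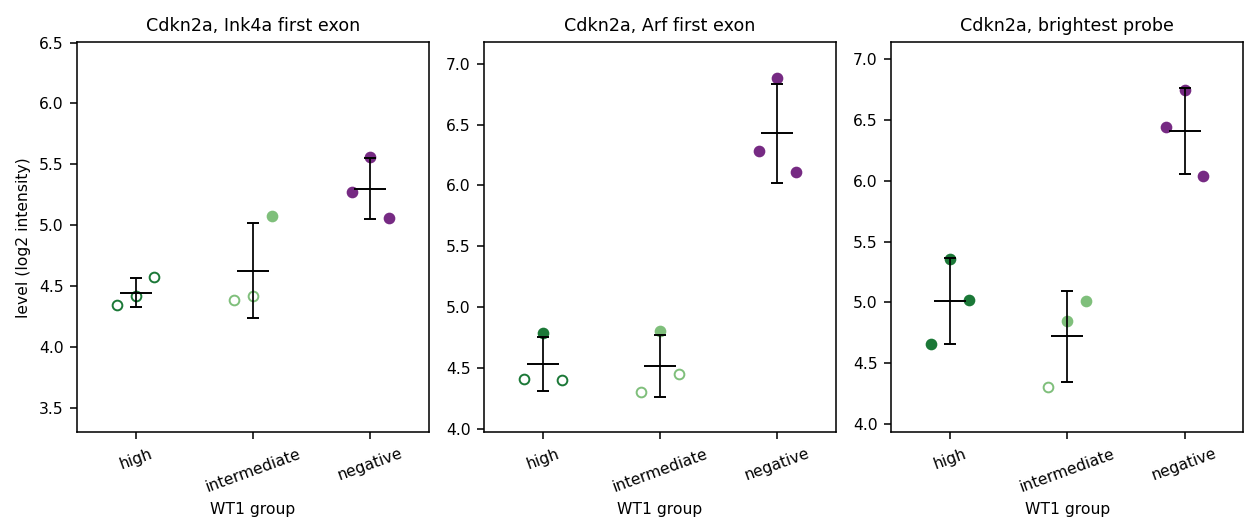
Level (y axis, log2 intensity, panels of equal span) of the 3 Cdkn2a probes by WT1 group (x axis). Points are arrays, open where not detected, and black lines the mean ± SD of 3 arrays. The Arf probe rose from a mean of 4.53 in WT1-high and 4.52 in WT1-intermediate to 6.43 in WT1-negative cells, and the Ink4a probe from 4.45 and 4.63 to 5.30.

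Cdkn2b, a target of TGF-beta signalling that lies beside Cdkn2a on chromosome 4, varied most between replicates. It read 6.71, 7.05 and 8.35 in WT1-high, 5.54, 5.99 and 7.63 in WT1-intermediate and 7.89, 7.84 and 7.44 in WT1-negative cells. The SD was 0.87 and 1.10 in the in vivo groups against 0.25 in culture, and the highest in vivo arrays, WT1-high 29 and WT1-intermediate 30, were those of the same animal. Without regard to animal, WT1-high exceeded WT1-intermediate cells by 0.98 (SE 0.51) with a limma adjusted p of 0.358, and the groups overlapped. Within animals the excess was 1.17, 1.06 and 0.72, and the fixed replicate block gave 0.98 (SE 0.16, 1.97-fold, limma adjusted p = 0.00593). A random replicate block by the label numbers, which leaves 29 and 30 unpaired, did not call it (1.02, adjusted p = 0.145).

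Relative to culture Cdkn2b fell by 1.34 (SE 0.51, 2.52-fold, limma adjusted p = 0.0407) in WT1-intermediate cells, with 1 of the 3 arrays above WT1-negative replicate 14. That call was lost without any 1 of 6 arrays, namely WT1-high replicate 8 (adjusted p = 0.0514), WT1-intermediate replicate 1 (0.155) or 8 (0.122), and WT1-negative replicate 3 (0.0959), 11 (0.0915) or 14 (0.0531). Without WT1-intermediate replicate 1 the difference was -0.92. The WT1-high difference from culture was -0.36 (SE 0.51, adjusted p = 0.563).

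Cdkn2c encodes p18, an INK4 protein that E2F factors induce. The brightest probe read 7.47, 7.77 and 7.29 in WT1-high, 6.68, 7.34 and 7.30 in WT1-intermediate and 8.44, 8.16 and 8.29 in WT1-negative cells. All cultures lay above all in vivo arrays. Cdkn2c fell by 0.79 (SE 0.20, 1.73-fold, limma adjusted p = 0.00598) in WT1-high and by 1.19 (SE 0.20, 2.28-fold, adjusted p = 0.000452) in WT1-intermediate cells. The other probe, ILMN_1215651, gave -0.11 (adjusted p = 0.645) in WT1-high and -0.66 (called, adjusted p = 0.0143) in WT1-intermediate cells. The latter call was lost with cyclic loess (-0.35, adjusted p = 0.148) and median scaling (-0.45, 0.0827). WT1-high minus WT1-intermediate was 0.40 and 0.55 on the 2 probes, with adjusted p of 0.35 and 0.179. With the random replicate block the second passed (0.59, adjusted p = 0.0495), as it did without WT1-high replicate 29 (0.79, 0.0459), while the fixed block gave 0.0771.

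The wider G1/S machinery was also mostly lower in liver cells. Counts in the lists that follow stand beside the 59.8% and 57.9% of all genes called in the same comparisons. Of 27 other genes of the pathway 21 were tested, of which 15 were called lower and 4 higher in WT1-high than in WT1-negative cells, and 16 lower and 1 higher in WT1-intermediate cells. Cdk4, partner of the D-type cyclins, fell by 1.10 (SE 0.13) in WT1-high and 1.29 (SE 0.13) in WT1-intermediate cells. Its relative Cdk6 was detected on all cultures and on no in vivo array, at least 1.52-fold and 1.51-fold lower. Cdk6 thus met the detection filter only with the cultures. The same held for Ccne2, another E-type cyclin among the genes called lower, detected on all cultures and on no in vivo array. Cdk2, partner of cyclin E, fell by 1.03 (SE 0.20) and 1.27 (SE 0.20). E2f1, the factor released from the retinoblastoma protein, fell by 1.90 (SE 0.19) and 1.73 (SE 0.19). All of these had a limma adjusted p of 0.0012 or less. Rb1, which encodes that protein, differed by -0.18 and 0.21 (adjusted p = 0.414 and 0.354) and was not called.

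Other large falls in this pathway were of Skp2, the ubiquitin ligase subunit that marks p27 for destruction, E2f2 and the pocket protein gene Rbl1 (-2.14, -1.84 and -1.81 in WT1-high cells, and -1.64, -1.72 and -1.69 in WT1-intermediate cells). Tfdp1, the common E2F partner, was also lower, by -1.70 and -1.98. Between the WT1-positive groups 1 of the 21 was called, namely Tfdp2, another E2F partner, which was higher by 1.03 (SE 0.15, limma adjusted p = 0.00477) in WT1-high cells. Genes of DNA replication and mitosis lay far below culture, with median differences of -3.07 (WT1-high) and -3.41 (WT1-intermediate). Of 13 listed, 11 were tested, and 10 were called lower and 1 higher than in culture in each of WT1-high and WT1-intermediate cells. Birc5 (-3.97 and -4.10), Top2a (-3.65 and -3.73) and Plk1 (-3.50 and -4.05) fell furthest in both, with Mcm5 (-3.15) in WT1-high and Cdc20 (-3.99) in WT1-intermediate cells. The exception was Pcna, the replication clamp, higher by 1.79 and 2.08. Mcm5, a subunit of the replicative helicase, was the only one of the 11 called between the WT1-positive groups, at -0.71 (adjusted p = 0.0447).

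**Figure D5:**
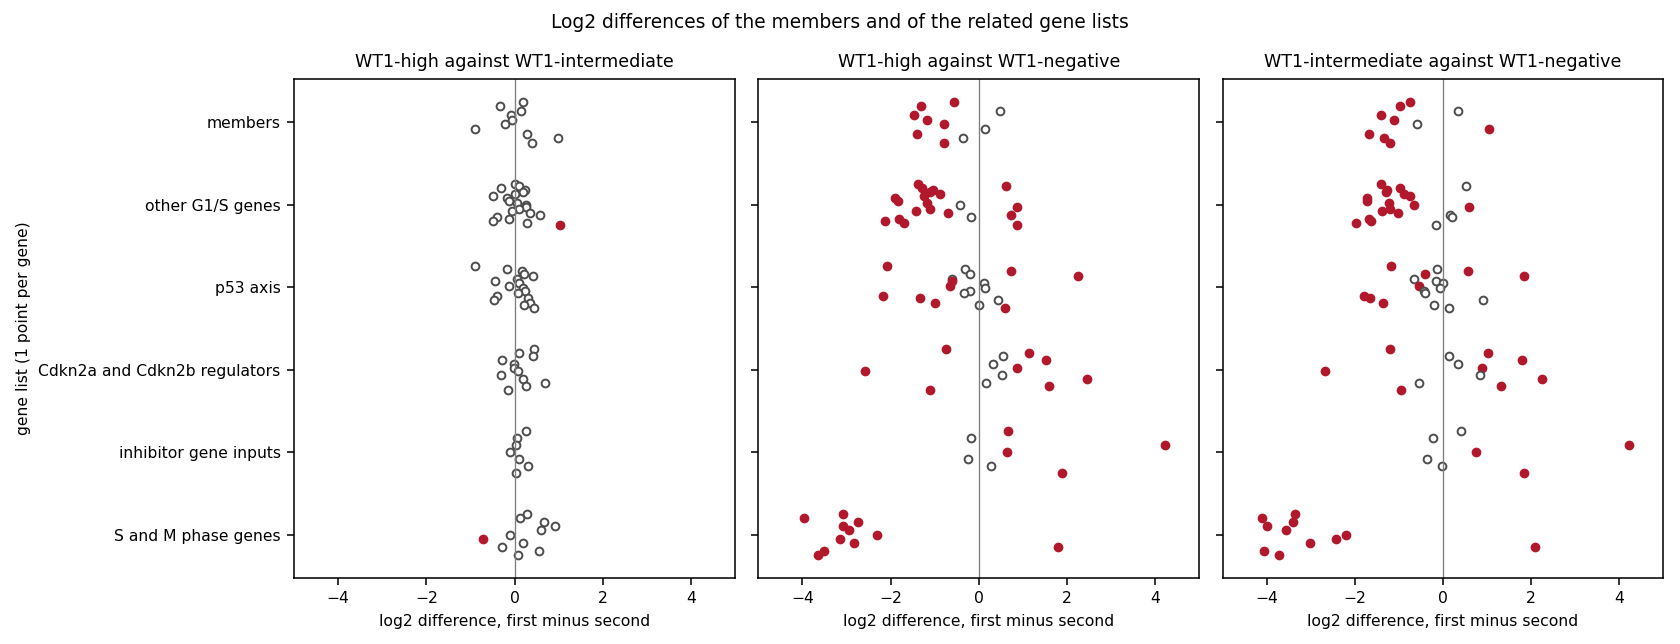
Log2 differences (x axis, first group minus second) of single genes in 6 lists (y axis, 1 point per gene by its brightest probe) for the 3 comparisons. Red points had a limma adjusted p under 0.05 and open points did not. Against WT1-negative cells, the S and M phase genes lie to the left apart from Pcna, at 1.79 and 2.08, and between the WT1-positive groups Tfdp2 and Mcm5 alone are red.

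Genes upstream of the inhibitors moved in both directions. Trp53, which encodes p53, fell by 0.99 (SE 0.22, limma adjusted p = 0.00235) in WT1-high and fell by 1.35 (SE 0.22, adjusted p = 0.000301) in WT1-intermediate cells relative to culture. Mdm2, the ligase that degrades p53 and is also its target, fell by 0.61 (adjusted p = 0.0264) in WT1-high cells and differed by -0.17 (adjusted p = 0.504) in WT1-intermediate cells. Of 18 tested genes of the p53 axis, 6 were called lower and 3 higher in WT1-high, and 6 lower and 2 higher in WT1-intermediate cells. These totals, 9 and 8 of 18, lie below the share of all genes, and the latter was 5 (4 lower) without WT1-negative replicate 11. Sesn1 (-2.17 and -1.78), the apoptosis gene Bax (-2.08 and -1.19) and Sesn2 (-1.33 and -1.65) fell, whereas the death receptor Fas was higher by 2.25 and 1.83. None of the 18 was called between the WT1-positive groups, but 1 was called lower in WT1-high cells with the random replicate block, with the fixed replicate block, and without WT1-intermediate replicate 8. The lowest adjusted p there was 0.0721, for Bax (-0.89).

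Of 12 tested regulators of Cdkn2a and Cdkn2b, mainly Polycomb subunits and the enzymes and factors that oppose them, 5 were called higher and 3 lower than in culture in each WT1-positive group, a share near that of all genes. With probes detected on all 9 arrays the count was 4 (3 higher and 1 lower) in both. Ezh2, the methyltransferase of Polycomb complex PRC2, fell by 2.59 (SE 0.33) in WT1-high and fell by 2.67 (SE 0.33) in WT1-intermediate sorts. Kdm6b (Jmjd3 in the files), which removes the mark that Ezh2 sets, was higher by 2.45 (SE 0.20) and 2.26 (SE 0.20), and Eed, another PRC2 subunit, by 1.52 and 1.80. Rnf2, a PRC1 ubiquitin ligase, was detected on no culture and was at least 2.54-fold and 2.10-fold higher. Rnf2 thus met the detection filter only with the in vivo arrays. Of 7 tested transcription factors that feed into inhibitor genes, WT1-high cells had 4 called higher than in culture, WT1-intermediate cells 3, and neither any called lower. Without WT1-negative replicate 11, or with array weights, the WT1-intermediate count was 5 (4 higher and 1 lower). Klf4, an activator of Cdkn1a, was higher by 4.24 (SE 0.17) and 4.21 (SE 0.17), Sp1 by 1.89 and 1.85, Klf6 by 0.64 and 0.74, and Foxo1 by 0.68 in WT1-high cells (0.40 in WT1-intermediate cells, adjusted p = 0.0848). Neither list held a call between the WT1-positive groups, but 1 of the 12 regulators was called higher in WT1-high cells with the fixed replicate block or without WT1-intermediate replicate 8.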

How the data were processed

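RNA of the sorted cells (aHSCs in the study) was hybridised to 9 Illumina MouseWG-6 v2.0 arrays (3 per group). The authors deposited unnormalised BeadStudio probe profiles on a linear intensity scale, with a detection p-value per probe and array, and control probes in separate tables, and the deposited intensity values had not been background corrected. The build used for annotation was not given in the sources used here. Groups came from the sample labels. The in vivo column named for replicate 29 and GFP-low cells was taken as the WT1-intermediate sample labelled 30, the only one of that group left. Its values equal those of the joined table's column that the label of sample 30 names (largest difference 0). Its detection p-values were read from the column beside it under the same array name. That array name also gave the pairing of 29 with 30.

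The in vivo and in vitro tables were joined and normalized together with limma 3.58.1 (R 4.3.3) by neqc, with 936 negative control probes, an offset of 16, quantile normalization and log2. A probe was kept if detected (p under 0.05) on 3 or more of the arrays. A linear model over the 3 groups (lmFit and eBayes, 6 residual and 5.19 prior degrees of freedom) gave log2 differences and SE, and p-values were adjusted by Benjamini-Hochberg over all kept probes. A gene is given by its brightest kept probe, and other probes are listed. Where a probe was undetected on all arrays of a group, the fold is a lower bound set against the lowest signal among detected probes of each array or the probe's own, whichever was higher. The fit was tested on simulated data. Sums of markers are of linear normalized intensities of kept probes. Array number limits the precision, since 3 arrays stood for each group.

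Same-numbered in vivo arrays deviated from their group means together (r = 0.35 and 0.34, and 0.47 for 29 with 30), while other combinations gave -0.39 to 0.03, and the study states that these arrays came from 3 animals. A random replicate block (duplicateCorrelation, consensus 0.378) and a fixed block over the 6 in vivo arrays were therefore added. Further alternatives were cyclic loess, median scaling, no background correction, an offset of 50, no filter, detection on all 9 arrays, a fit of the 2 groups alone, array weights, an adjusted p threshold of 0.01, and leaving out each array.

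The rule for named genes took every member with all probes, and from each related list Cdk4, Cdk6, Cdk2, Rb1, E2f1, Trp53 and Mdm2 plus up to 4 called genes of largest difference per comparison. Lists were matched by symbol (156 of 163 entries) or Entrez ID (4). Members and lists were chosen with earlier results of these data known. Marker genes of other cell types named beside a result come from lists of cell type markers.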

Additional observations from a re-analysis of the deposited data

How the results depend on the processing

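Of 30 member comparisons by brightest probe, 18 kept their call and direction under every alternative run and without each of the 9 arrays, as did 11 of the 15 called ones. Ccne1, Cdkn1b and Cdkn2a could not be run with probes detected on all 9 arrays, since their brightest probes were not among them. The exceptions among the called were Ccnd1 in both comparisons with WT1-negative cells, Cdkn1b in WT1-high and Cdkn2b in WT1-intermediate cells. Ccnd1 was not called in WT1-high cells without a filter (adjusted p = 0.092), in a fit of those 2 groups (0.0574) or with array weights (0.127), nor in WT1-intermediate cells with array weights (0.0677). Cdkn1b was not called in WT1-high cells without a filter (0.0565). Cdkn2b was not called in WT1-intermediate cells without background correction (-0.80, 0.0886), with an offset of 50 (-1.01, 0.0761) or without a filter (0.154). These 3 genes also missed a threshold of 0.01 there. Ccnd3 became called with array weights in WT1-high (0.00424) and WT1-intermediate cells (0.0451), and the Ink4a probe was not called in WT1-intermediate cells with median scaling (0.245). The cause was not tested.

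Between WT1-high and WT1-intermediate cells, 730 probes were called. The count was 335 without a filter, 358 in a fit of the 2 groups, 224 at a threshold of 0.01, 1752 with the random replicate block and 1520 with the fixed replicate block, and without 1 array it ran from 324 (without WT1-intermediate replicate 1) to 866, with 333 and 371 without WT1-high replicates 8 and 29. Of the 10 genes, the random block called 1 and the fixed block 2, and 0 were called under the other alternatives. The random block also turned the Ccnd1 call in WT1-high cells and the Cdkn1b result in WT1-intermediate cells, as given above, and changed no other call of a brightest probe. Changes for the related lists under either block are given above. Probes detected on all 9 arrays gave 7970 calls for WT1-high and 7716 for WT1-intermediate against WT1-negative cells, with 4 of the 10 genes called in the former, since fewer probes were tested.

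The median of all probes against WT1-negative cells was -0.10 (WT1-high) and -0.13 (WT1-intermediate), against 0.01 and -0.01 with cyclic loess and -0.13 and -0.01 with median scaling. No call of a brightest probe changed with either. Of the other probes, calls changed for the Ink4a probe, Ccnd2 ILMN_1225932 and Cdkn2c ILMN_1215651, as given above, and median scaling also called Ccnd2 ILMN_1225932 lower in WT1-high than WT1-intermediate cells (-0.69, adjusted p = 0.0469) and Ccnd3 ILMN_2661849 higher in WT1-intermediate cells than in culture (0.75, 0.00809). Differences that were not called changed sign as follows. For WT1-high minus WT1-intermediate, cyclic loess gave -0.24 for Cdkn2a ILMN_1221177, median scaling gave -0.41 for Ccnd3 ILMN_2661849, 0.16 for Cdkn1a ILMN_2634083 and -0.41 for Cdkn2a ILMN_1221177, array weights gave -0.034 and the random block -0.044 for Ccnd3 ILMN_2661849. Against WT1-negative cells, cyclic loess gave 0.088 for Cdkn2c ILMN_1215651 and array weights gave -0.085 for Cdkn1c in WT1-high cells, and array weights gave 0.029 for Cdkn1a ILMN_2846776 and 0.26 for ILMN_2846775 in WT1-intermediate cells. Without 1 array each, WT1-high minus WT1-intermediate ran from -0.30 to 0.16 for Cdkn1a ILMN_2634083, -0.11 to 0.15 for Cdkn2a ILMN_1221177, -0.31 to 0.046 for Cdkn2a ILMN_1227342, -0.14 to 0.24 for Ccnd3 ILMN_2661849 and -0.13 to 0.0053 for Ccne1. Against WT1-negative cells it ran from -0.26 to 0.12 for Cdkn2c ILMN_1215651 in WT1-high cells, and from -0.46 to 0.032 for Cdkn1a ILMN_2846776 and -0.39 to 0.22 for ILMN_2846775 in WT1-intermediate cells.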
